A study of Gallus gallus with 40 samples.

Results

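The comparison set the pectoralis major of broilers with mild white striping (mild WS) against that of broilers without striping (non-WS). It comprised 11 of the 40 arrays of the series, 7 of mild WS and 4 of non-WS, and membership followed the sample titles. Each array carried total RNA from the breast muscle of a single male commercial broiler (Ross 308 for the striped birds, ROSS in the labels of all), hybridized to a custom 1-color Agilent chicken array. The mild WS, moderate WS (6 arrays), severe WS (4 arrays) and non-WS birds were fitted together, 21 arrays in all, and the 19 arrays of the wooden breast experiment were not used. In the sample fields the severity of these striped birds stands under wooden breast and not under white striping, whereas titles, source names and descriptions all give white striping. The striped birds of the study had a common slaughter age, and its collection at that age held no bird free of striping. The study profiled 6 mild WS birds, whereas the series holds 7, so its description may not cover every mild WS bird here. Where the 4 non-WS birds came from, and their age and flock, is not given in the sources used here. Age and flock therefore cannot be told apart from striping in any value of mild WS against non-WS.

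White striping is a myopathy of fast-growing broilers in which white lines of fat and connective tissue run parallel to the muscle fibers of the breast. Histology of affected muscle typically shows fiber degeneration and regeneration, infiltration by immune cells, fat deposition and fibrosis. The pectoralis major consists almost wholly of fast glycolytic fibers, and mild striping is the lowest grade of the defect.

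Signal levels are background-subtracted intensities after quantile normalization across arrays, in arbitrary units, and the level of a probe is compared only with its own level in other birds. The troponins of fast fibers, TNNT3, TNNI2 and TNNC2, were well above background on all 11 arrays. Of the markers of slow muscle, TNNC1 was so on all 11, TNNI1 on 7 mild WS and 1 non-WS, MYL3 on 4 mild WS and 0 non-WS, and MYL2 on none. Of those of smooth muscle, ACTA2 and TAGLN were on all 11 and MYH11 on none. Of those of liver as a foreign tissue, ALB was on all 11, TTR on 7 mild WS and 2 non-WS, FGB on 5 mild WS and 1 non-WS, and FGA on none. Slides 1 and 2 each held 2 arrays of every grade and 2 of non-WS, and the other 3 mild WS arrays lay on slides without a non-WS array. With the slide as a factor, mild WS replicate 7, alone on its slide among these arrays, did not inform the fold changes. Signals, their ranges and the overlap of groups are not adjusted for slide and include all 7 mild WS birds. They compare birds across slides and can differ in size, and at times in direction, from the slide-adjusted fold changes beside them. All mild and moderate WS arrays lay in row 2 of their slide and all severe WS and non-WS arrays in row 1, so that row and group cannot be told apart for mild WS against non-WS. Before normalization the median signal per array was 110.0 to 229 in mild WS and 76.4 to 117 in non-WS, and 71.3 to 75.4% against 66.9 to 72.3% of spots were well above background. Whether slide row or brightness contributed to the differences below was not tested.

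A differentially expressed gene (DEG) had to reach an absolute fold change (|FC|) of at least 1.2 with a false discovery rate (FDR) no higher than 0.05, which 1 of 32627 probes tested (0.00306%) did in mild WS against non-WS. At the same |FC| and an FDR of 0.2 or less, 1688 probes (5.17%) passed, 693 higher in mild WS (2.12%) and 995 lower (3.05%), and 4858 (14.9%) had an unadjusted p of 0.05 or less, 2067 higher (6.34%) and 2791 lower (8.55%). The probes stood for 9602 named genes when 1 probe was used for each, the one with the highest mean signal. No named gene was a DEG, while 448 genes (4.67%) passed the FDR of 0.2, 162 higher (1.69%) and 286 lower (2.98%), and 1313 (13.7%) had an unadjusted p of 0.05 or less, 545 higher (5.68%) and 768 lower (8%). The 7 mild WS and 4 non-WS birds did not overlap at all for 958 probes (2.94%). Of the 162 higher genes, 48 had a |FC| of 1.2 to 1.5, 65 of 1.5 to 2 and 49 of 2 or more, and of the 286 lower genes 119, 124 and 43 fell in these classes. Below, genes are therefore described by their values, and passing the FDR of 0.2 is named as such. The counts depended on single birds. Without mild WS replicate 3 there were 144 DEGs, without non-WS replicate 4 there were 73, without moderate WS replicate 2 there were 58, and over all 21 arrays left out in turn the number ran between 0 and 144. With the authors' normalized intensities, 51.4% of 1345 probes at an FDR of 0.2 were higher in mild WS, against 41.1% of the 1688.

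**Figure D1:**
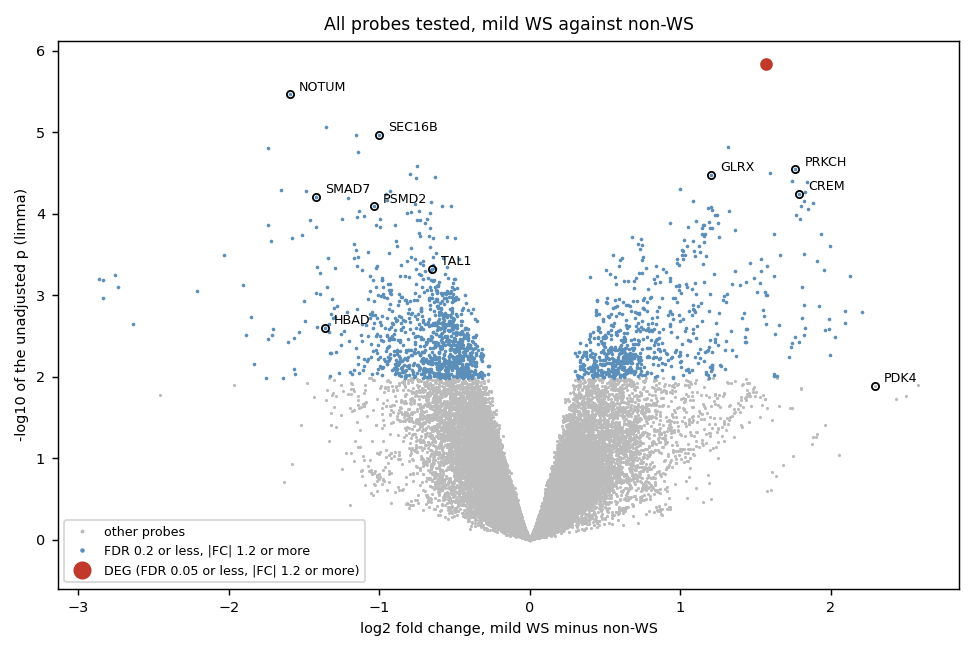
Log2 fold change (mild WS minus non-WS, horizontal axis) and −log10 of the unadjusted p from limma (vertical axis) for the 32627 probes tested, with probes at an FDR of 0.2 and a |FC| of 1.2 in blue and the single DEG in red. Circles mark named genes described in the text, and lower probes outnumber higher ones among the blue points (995 against 693).

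The only DEG was the transcript XM_417586.5, for which the reference table holds no gene name. Its signal was 162, 187 and 283 as the lowest, median and highest of the 7 mild WS birds, against 56.4, 72.8, 95.3 and 82.7 in the non-WS birds. Every mild WS bird lay above every non-WS bird. The transcript rose in mild WS (log2 fold change 1.57, SE 0.21, adjusted p = 0.048), by 1.77 on slide 1 and 1.37 on slide 2. Its log2 fold changes over non-WS were 1.31 in moderate WS (adjusted p = 0.061) and 1.64 in severe WS (adjusted p = 0.046). Mild WS differed from severe WS by −0.07 ± 0.21. Leaving out each of the 21 arrays gave a log2 fold change between 1.42 and 1.69 and adjusted p values between 0.024 and 0.186. The call was lost without mild WS replicate 1, 2, 4, 5 or 6, without moderate WS replicate 1, 3, 4, 5 or 6, without severe WS replicate 1 and without non-WS replicate 1. It was also lost with the authors' intensities (adjusted p = 0.081), with a replicate block (0.054) and with the 11 arrays alone (0.19 with the slide term and 0.075 without it).

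The named genes nearest to the threshold on the higher side were 8 genes with adjusted p values between 0.066 and 0.071, none of them a DEG. The groups did not overlap for 7 of the 8, and all 8 were positive on both shared slides, which the choice by p largely fixes (the groups did not overlap for 2.66% of all named genes). PRKCH, the eta isoform of protein kinase C, had a signal of 278, 489.8 and 1066 (lowest, median and highest) in mild WS, against 189.8, 263, 228 and 151 in non-WS. All mild WS birds exceeded the highest non-WS bird, and the log2 fold change was 1.76 ± 0.31 (SE, as for all fold changes below). CREM encodes a transcription factor of the cyclic AMP response that acts as an activator or repressor by isoform. It was at 947, 1108 and 1860.5 in mild WS, against 374, 359, 794 and 350.4 in non-WS (log2 fold change 1.79 ± 0.33). All 7 CREM probes tested gave values between 1.77 and 1.88, and non-WS replicate 3 stood apart from the other non-WS birds. P2RY14, a G protein-coupled receptor for UDP-glucose, was at 203, 538 and 621 in mild WS, against 159, 349, 199 and 116 in non-WS. Here 6 of 7 mild WS birds lay above the non-WS range, with a log2 fold change of 1.60 ± 0.28.

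GLRX, the glutaredoxin that reduces glutathionylated proteins, was at 5296, 7759 and 11055 in mild WS, against 3226, 5232, 4623 and 2786 in non-WS. The lowest mild WS bird thus stood just above the highest non-WS bird, and the log2 fold change was 1.2 ± 0.21. EMP2, a tetraspan membrane protein, gave 1852, 2158 and 2717 in mild WS, against 1254, 869, 1058 and 1415 in non-WS (1.15 ± 0.24). MAGI1, a scaffold protein of cell junctions, gave 222, 302 and 376 in mild WS, against 145, 141, 134 and 212 in non-WS (1.16 ± 0.24). The 12 MAGI1 probes ranged from 1.08 to 1.24. STXBP3, a syntaxin-binding protein of vesicle fusion, had a log2 fold change of 0.93 ± 0.19 at 49.0, 67.6 and 85.1 in mild WS, against 43.6, 22.5, 41.3 and 37.5 in non-WS. RASL11AL, a Ras-like gene by its name, had 1.36 ± 0.28 at 134, 164 and 228 in mild WS, against 71.4, 48.6, 91.4 and 94.8 in non-WS. Neither gene overlapped between the groups. The lowest STXBP3 signal, 22.5 in non-WS replicate 2, lay near the minimum of 20 set for a probe before normalization.

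On the lower side, the 8 named genes nearest to the threshold had adjusted p values between 0.056 and 0.066. The groups did not overlap for 4 of them, and all 8 were negative on both shared slides, again after a choice by p. NOTUM, a secreted enzyme that inactivates Wnt ligands by removing their lipid, came closest (adjusted p = 0.056). Its signal was 119, 207 and 265 in mild WS, against 541, 364, 617 and 400.5 in non-WS, with a log2 fold change of −1.59 ± 0.23. No mild WS bird reached the lowest non-WS bird. PTH2R, a receptor of the parathyroid hormone family, was at 56.7, 75.2 and 89.0 in mild WS, against 220.5, 153, 164 and 124 in non-WS (−1.14 ± 0.19). SEC16B, an organizer of the sites where cargo leaves the endoplasmic reticulum, was at 42.3, 82.0 and 154 in mild WS, against 309, 278, 205 and 165 in non-WS (−1.0 ± 0.16). Both genes separated the groups fully. P2RX2, a cation channel opened by ATP, was at 22.5, 38.5 and 59.4 in mild WS, against 109.9, 119, 91.3 and 48.0 in non-WS (−0.93 ± 0.17). Its lowest value, 22.5 in mild WS replicate 6, was also that of STXBP3 in non-WS replicate 2. Quantile normalization gives equal ranks equal values, so both lay at the same low rank, near the signal minimum of 20. KRT75L2, a keratin, was at 99.0, 124 and 162 in mild WS, against 219, 249, 225 and 207 in non-WS (−0.66 ± 0.12). TMEM59L had the widest spread, at 94.9, 152 and 378 in mild WS, against 326, 248, 341 and 311 in non-WS. Its log2 fold change was −1.35 ± 0.21, with 5 of 7 mild WS birds below the non-WS range and 1 above it.

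**Figure D2:**
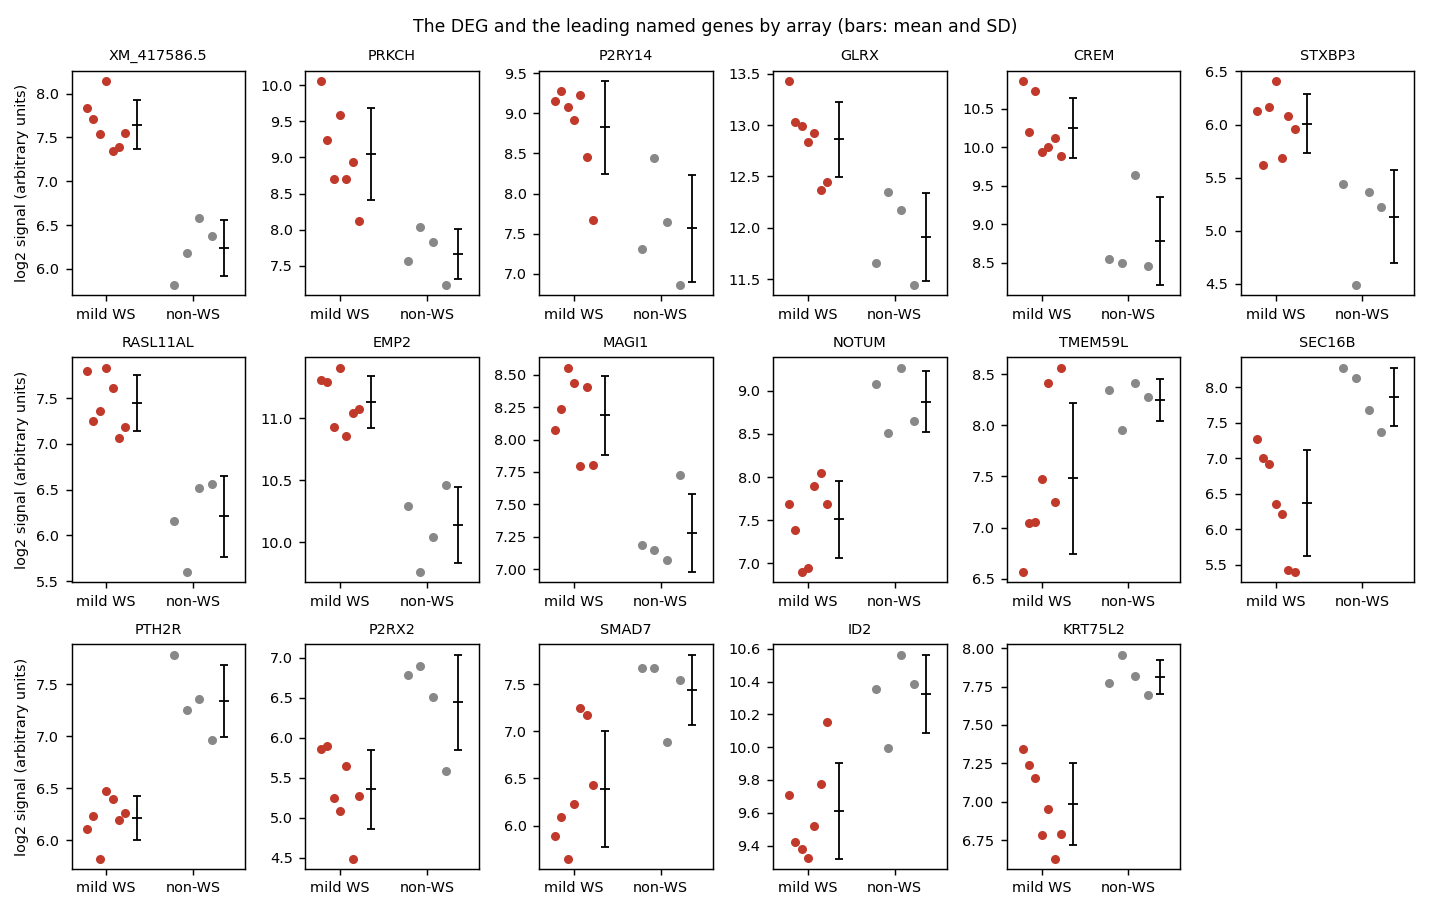
Log2 signal (vertical axis, arbitrary units) of XM_417586.5 and of the 16 leading named genes, 1 point per bird, with 7 mild WS birds (red, left) and 4 non-WS birds (grey, right) in each panel, and the mean and SD beside them. The 9 panels from XM_417586.5 to MAGI1 are higher in mild WS, P2RY14 with overlap, and the 8 from NOTUM to KRT75L2 are lower, with overlap in TMEM59L, P2RX2, SMAD7 and ID2.

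The other 2 of these lower genes, SMAD7 and ID2, belong to growth and TGF-beta signalling, a set of ligands, receptors, SMAD mediators and their inhibitors that regulate muscle mass and fibrosis. Of the 30 genes of that list tested, 5 passed the FDR of 0.2, all lower, against 2.98% of all named genes. The median log2 fold change was −0.19, and 21 of the 30 were negative. Both inhibitory SMADs were among the 5. SMAD7, which blocks TGF-beta and BMP receptors, was at 50.2, 75 and 152 in mild WS, against 204, 203, 119 and 186 in non-WS (−1.42 ± 0.26, adjusted p = 0.066). SMAD6, which acts mainly on BMP receptors, was at 287, 371 and 757 in mild WS, against 785, 670.0, 556 and 989 in non-WS (−0.92 ± 0.23, adjusted p = 0.112). Most mild WS birds lay below the non-WS range, 5 of 7 for SMAD7 and 6 of 7 for SMAD6. ID2, an inhibitor of basic helix-loop-helix factors and a target of BMP signalling, was at 642, 733 and 1137 in mild WS, against 1311, 1019, 1516 and 1337 in non-WS (−0.95 ± 0.18). The other ID genes overlapped between the groups. ID1 was at 12445 to 21322 in mild WS and 14438 to 32725 in non-WS, and ID3 at 397 to 1343 and 1093 to 1826. The ligands BMP4 and BMP7 had log2 fold changes of −0.86 ± 0.25 and −0.81 ± 0.21 (adjusted p = 0.152 and 0.127). The receptors TGFBR1 and TGFBR2 had −0.30 and −0.29, myostatin (MSTN) −0.10 and the mediators SMAD2 and SMAD3 0.14 and −0.13, and none of these passed the FDR of 0.2.

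Genes of red blood cells, which are nucleated in birds, had the lowest median of the 23 lists, −0.72 over 8 genes tested against −0.0018 over all named genes. Of the 8 genes, 5 passed the FDR of 0.2, all lower (2.98% of all named genes), and for these 5 all mild WS birds lay below all non-WS birds (groups did not overlap for 2.66% of all named genes). The adult alpha globin HBAD was at 2684, 4832 and 6714 in mild WS, against 10246, 11271, 10412 and 9438 in non-WS (−1.36 ± 0.38, adjusted p = 0.139). HBA1, the other adult alpha globin, was at 9410.3, 15805 and 22789 in mild WS, against 37262, 34583, 27414 and 26584 in non-WS (−1.06 ± 0.32, adjusted p = 0.156). HBBA, the adult beta globin, was at 6035, 11940 and 14187 in mild WS, against 21711, 18563, 16044 and 14861 in non-WS (−0.99 ± 0.32, adjusted p = 0.183). The globins thus kept the same order of groups, although the mild WS birds spread more than the non-WS birds. SLC4A1, the anion exchanger of the red cell membrane, and TAL1, an erythroid transcription factor, had −0.80 ± 0.22 and −0.65 ± 0.15 (adjusted p = 0.136 and 0.096). The summed signal of HBA1, HBAD, HBBA and SLC4A1 was 20040 to 43540 in mild WS and 53330 to 71860 in non-WS. HBE1, EPB41 and CA2, the other genes of the list, had −0.38, −0.37 and −0.17 and overlapped. In whole muscle, fewer cells of a type and less RNA per cell cannot be told apart, and the part of the red cell content in other results was not tested.

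The proteasome degrades ubiquitinated proteins through a catalytic core of alpha and beta subunits and a regulatory cap. Of 33 subunits tested, 30 had a negative log2 fold change, as did 4818 of all 9602 named genes, and the median was −0.20. At an FDR of 0.2, 6 passed, all lower, against 2.98% of all named genes. PSMD2, a non-ATPase subunit at the base of the cap, was at 1289, 3588 and 4480.3 in mild WS, against 7137, 8028, 6618 and 6764 in non-WS (−1.04 ± 0.20, adjusted p = 0.066). Its lowest value, in mild WS replicate 6, stood apart from the other mild WS birds, and the remaining birds still lay below all non-WS birds. PSMA5, of the core's alpha ring, was at 13587, 14822 and 16020 in mild WS, against 20528, 20495, 16970 and 19025 in non-WS (−0.41 ± 0.12, adjusted p = 0.159). The changes of the other 4 subunits were small. PSMD13, PSMB2, PSMB5 and PSMB7 had log2 fold changes between −0.32 and −0.27, and groups did not overlap for PSMD13 and PSMB2. Over the list, groups did not overlap for 4 of the 33 subunits, against 2.66% of all named genes. For 23 of the 33 subunits the difference was negative on both shared slides, and for 3 it was positive on both. The ubiquitin ligase TRIM63, which marks myofibrillar proteins for the proteasome, had 0.71 ± 0.49, and no gene of the atrophy and proteolysis list (26 tested) passed the FDR of 0.2.

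**Figure D3:**
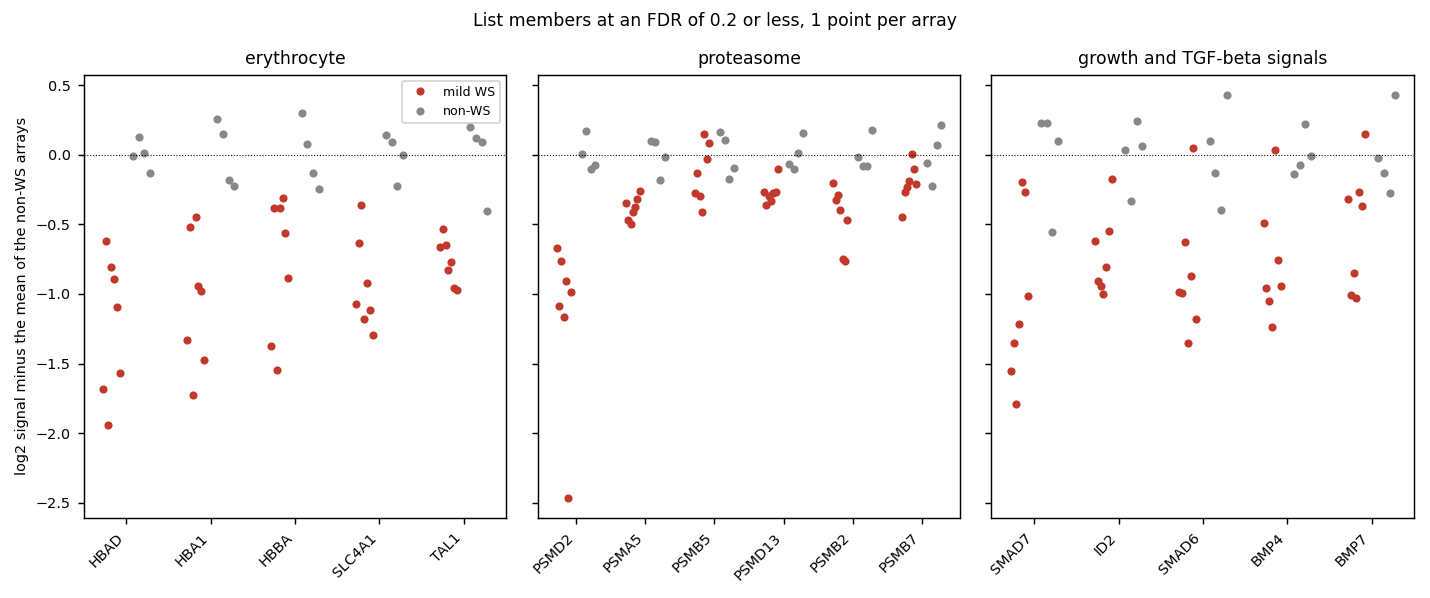
Log2 signal minus the mean of the non-WS birds (vertical axis) for the members of the erythrocyte, proteasome and growth and TGF-beta lists at an FDR of 0.2 or less, with 7 mild WS birds (red, left of each pair) and 4 non-WS birds (grey, right). The 5 erythrocyte genes and PSMD2, PSMA5, PSMD13 and PSMB2 separate the groups, whereas the 5 growth and TGF-beta genes overlap in 1 or more birds.

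Genes of muscle regeneration, which mark satellite cells and new fibers, had a median log2 fold change of −0.28. Of the 23 genes 18 were negative, as were 4818 of all 9602 named genes. At an FDR of 0.2, 2 passed, both lower, against 2.98% of all named genes. Between birds of a group the list varied with an SD of 0.36 on the log2 scale, more than its median fold change. The median was −0.15 without non-WS replicate 1 or 4, −0.16 without mild or moderate WS replicate 5 and −0.43 without non-WS replicate 2. Over the same non-WS birds the list's median was 0.13 in moderate WS and 0.031 in severe WS. MEF2C, a transcription factor of muscle differentiation, was at 61.1, 92.5 and 140 in mild WS, against 236, 229, 147 and 156 in non-WS (−0.77 ± 0.19, adjusted p = 0.114). All mild WS birds lay below the non-WS birds. Groups did not overlap for 1 of the 23 genes of the list, against 2.66% of all named genes. ANKRD1, a stretch-responsive protein of the sarcomere and nucleus, had −0.86 ± 0.27 (adjusted p = 0.172), with 4 of 7 mild WS birds below the non-WS range. The satellite cell factor PAX7 had −0.81 ± 0.34, and the myogenic factors MYOD1 and MYOG had −0.61 ± 0.31 and −0.68 ± 0.40, none of them at an FDR of 0.2 (adjusted p = 0.273, 0.366 and 0.438). Sarcomere genes of fast fibers had a median of −0.04 over 25 genes (−0.12 without non-WS replicate 2), which became −0.47 when the arrays were scaled to their 75th percentile in place of quantile normalization. The summed signal of TNNT3, TNNI2, TNNC2 and PVALB was 716100 to 777200 in mild WS and 784500 to 790300 in non-WS. Singly, however, TNNT3, TNNI2 and TNNC2 had log2 fold changes of −0.09, 0.0065 and −0.04 (adjusted p = 0.65, 0.98 and 0.845). PVALB added little, at 17.3 to 751 in mild WS, and was well above background on 6 of 7 mild WS arrays. Only LMOD3, which nucleates thin filaments, passed the FDR of 0.2 in the fast fiber list, against 2.98% of all named genes lower. It was at 61.6, 134 and 193 in mild WS, against 393, 263, 270.4 and 235 in non-WS (−0.86 ± 0.20, adjusted p = 0.102).

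In the circadian clock list, 3 of 18 genes passed the FDR of 0.2, all lower (2.98% of all named genes), and the median was −0.09. It was −0.28 without the slide term, with the slide as a random block and with the 11 arrays alone without the slide term. It was −0.17 without non-WS replicate 1 and −0.050 without mild WS replicate 2. CIART, a repressor of the clock activators, was at 83.1, 93.3 and 100 in mild WS, against 173, 144, 145 and 143 in non-WS (−0.66 ± 0.14, adjusted p = 0.080). TEF, a transcription factor driven by the clock, was at 542, 574 and 646 in mild WS, against 804, 838, 738 and 899 in non-WS (−0.49 ± 0.12, adjusted p = 0.114). In both, the mild WS birds lay in a narrow range below the non-WS birds. Groups did not overlap for 3 of the 18 genes, against 2.66% of all named genes. BHLHE41, a repressor within the clock, had −1.14 ± 0.25 (adjusted p = 0.086) with overlap. PER3 and RORA had −0.97 ± 0.36 and −0.72 ± 0.32, and HLF, related to TEF, had 0.78 ± 0.29 (adjusted p = 0.222, 0.295 and 0.221). The hour at which each bird was sampled is not given, so time of day cannot be told apart from striping.

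Genes of adipocytes and lipid handling had the highest median, 0.36 over 29 genes, 21 of them positive. It was 0.21 without non-WS replicate 1. Over the same non-WS birds the list's median was 0.32 in moderate WS and 0.021 in severe WS. Of the grades, only severe WS shared its slide row with non-WS, and whether row had a part was not tested. UCP3, a mitochondrial carrier of muscle linked to fatty acid oxidation, was at 46847, 82519 and 103570 in mild WS, against 49993, 47628, 21169 and 57482 in non-WS (1.31 ± 0.33, adjusted p = 0.115). CD36, a fatty acid transporter, was at 1907, 2644 and 4768 in mild WS, against 1011, 1320, 926 and 2876 in non-WS (1.19 ± 0.39, adjusted p = 0.183). These were the only 2 of the 29 members at an FDR of 0.2, against 1.69% of all named genes higher. In both the groups overlapped, with 6 and 2 mild WS birds above the non-WS range. PDK4, which inhibits pyruvate dehydrogenase when fat is burned, had 2.29 ± 0.82 (adjusted p = 0.213), at 13493, 29383 and 58265 in mild WS, against 12096, 7183, 1696 and 36173 in non-WS. The non-WS birds spread more widely than the mild WS birds for this gene. The lipid droplet coat protein PLIN1 and lipoprotein lipase (LPL) had 1.24 ± 0.47 and 0.58 ± 0.22 (adjusted p = 0.233 and 0.232), and the adipokine ADIPOQ had 0.39. The adipocyte markers CIDEC and FABP4 had 0.68 ± 0.46 and 0.115 ± 0.25 (adjusted p = 0.513 and 0.867). The summed signal of the adipocyte markers ADIPOQ, PLIN1, FABP4, CIDEC and LPL was 28670 to 56950 in mild WS and 19380 to 32480 in non-WS, and its part in the list's values was not tested. Within this sum, FABP4 was highest in mild WS replicates 6 and 7 (26173 and 37262), on slides without a non-WS array.

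Extracellular matrix genes had a median of 0.33 (0.22 without mild WS replicate 4), and 31 of 38 were positive. Only CCN2 passed the FDR of 0.2, against 1.69% of all named genes higher. CCN2, a matricellular protein induced by TGF-beta, was at 1312, 2795 and 3789 in mild WS, against 1676, 1265, 2322 and 1688 in non-WS (0.75 ± 0.20, adjusted p = 0.124). Thus 4 of 7 mild WS birds exceeded the non-WS range. The proteoglycans biglycan (BGN) and lumican (LUM) had 0.85 ± 0.31 and 0.58 ± 0.26 (adjusted p = 0.216 and 0.304), and the fibrillar collagens COL3A1, COL5A2 and COL1A2 had 0.47, 0.52 and 0.40. Groups did not overlap for 2 of the 38 genes, against 2.66% of all named genes. The first, COL5A2, was at 2892, 3712 and 5319.6 in mild WS, against 2212, 2086, 2717 and 2698 in non-WS. The other, COL14A1, a collagen that associates with fibrils, had 0.92 ± 0.42 (adjusted p = 0.309). COL12A1 and TNC, matrix genes of tendon and injured muscle, had negative values of −1.10 and −0.90 (adjusted p = 0.432 and 0.620). The summed signal of COL1A2, COL3A1, DCN and LUM was 111100 to 208400 in mild WS and 103800 to 123500 in non-WS, and its part in the list's values was not tested.

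Of the immune lists, macrophage and complement genes had a median of 0.14 (21 tested) and lymphocyte genes of 0.30 (9 tested). The macrophage median had no settled direction, with 0.63 on slide 1, −0.15 on slide 2, −0.047 without mild WS replicate 1 and 0.44 without mild WS replicate 3. The lymphocyte median was 0.16 without mild WS replicate 4 and 0.17 without mild WS replicate 6 or moderate WS replicate 6. CX3CR1, a chemokine receptor of mononuclear phagocytes, was the only member at an FDR of 0.2, against 1.69% of all named genes higher. It was at 199.9, 255 and 401 in mild WS, against 164, 144, 158 and 174 in non-WS (0.75 ± 0.19, adjusted p = 0.114). All mild WS birds exceeded the non-WS birds for it, and groups did not overlap for 2.66% of all named genes. The complement genes C1QA, C1QB and C1QC had 0.37, 0.08 and 0.15, and the macrophage receptor MARCO did not pass either (adjusted p = 0.999). The T cell genes CD8A and CD3E had 0.67 ± 0.31 and 0.47 ± 0.26 (adjusted p = 0.325 and 0.410). The chemokine CCL4 had 1.91 ± 0.90 (adjusted p = 0.327), 3.87 on slide 1 and 0.18 on slide 2.

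In the nerve list, 2 of 8 genes passed the FDR of 0.2 in opposite directions, against 1.69% of all named genes higher and 2.98% lower. NPTX2, a secreted pentraxin of synapses, was at 99.5, 284 and 736 in mild WS, against 151, 171, 270 and 106 in non-WS (1.44 ± 0.43, adjusted p = 0.153). The groups overlapped, with 5 of 7 mild WS birds above the non-WS range and 1 below it. ERBB3, a neuregulin receptor of Schwann cells, was at 63.7, 88.3 and 137 in mild WS, against 136, 147, 106 and 242 in non-WS (−1.0 ± 0.33, adjusted p = 0.181). Without non-WS replicate 2 the list's median, −0.19, turned to 0.10. Among genes of endothelium and vascular smooth muscle, SMTN, which encodes smoothelin, was higher in mild WS (0.78 ± 0.26, adjusted p = 0.191). Its signal was 1829, 3153 and 10801 in mild WS, against 1221, 1687, 2008 and 1997 in non-WS. Mild WS replicates 5, 6 and 7, on slides without a non-WS array, had the highest signals, at 10801, 7392 and 4988. The difference was 0.98 on slide 1 and 0.26 on slide 2. The smooth muscle markers ACTA2 and TAGLN had 0.08 and −0.06 (adjusted p = 0.908 and 0.918). SMTN was also the only member of the 21 genes of the study's qPCR set at an FDR of 0.2, against 1.69% of all named genes higher. That set was chosen on these samples and is no independent evidence. The endothelial nitric oxide synthase NOS3 had −0.35 ± 0.12 (adjusted p = 0.204), with −0.09 on slide 1 and −0.66 on slide 2. The endothelial markers PECAM1, CDH5 and KDR had 0.46, 0.32 and −0.19 (adjusted p = 0.236, 0.378 and 0.738).

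The remaining lists gave few differences. HK1, a hexokinase, had −0.39 ± 0.13 (adjusted p = 0.198) and was the only 1 of 35 genes of glycolysis and glycogen at an FDR of 0.2. TPX2, a spindle protein, had −0.58 ± 0.20 (adjusted p = 0.199) and was the only 1 of 30 genes of cell division. Of all named genes, 2.98% were lower at that FDR. No member passed for the respiratory chain (60 tested), oxidative stress defence (32), heat shock proteins and chaperones (34), calcium handling (30), the hypoxia response (22), interferon-stimulated genes (18) or slow fibers (10). Among respiratory chain subunits 47 of 60 were positive with a median of 0.10, a direction that turned to −0.12 under scaling to the 75th percentile. The median was 0.019 without non-WS replicate 1, 0.066 without non-WS replicate 4 and 0.19 without non-WS replicate 2. Its leading members were NDUFA9 of complex I and SDHA of complex II, with 0.35 ± 0.14 and 0.41 ± 0.18.

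**Figure D4:**
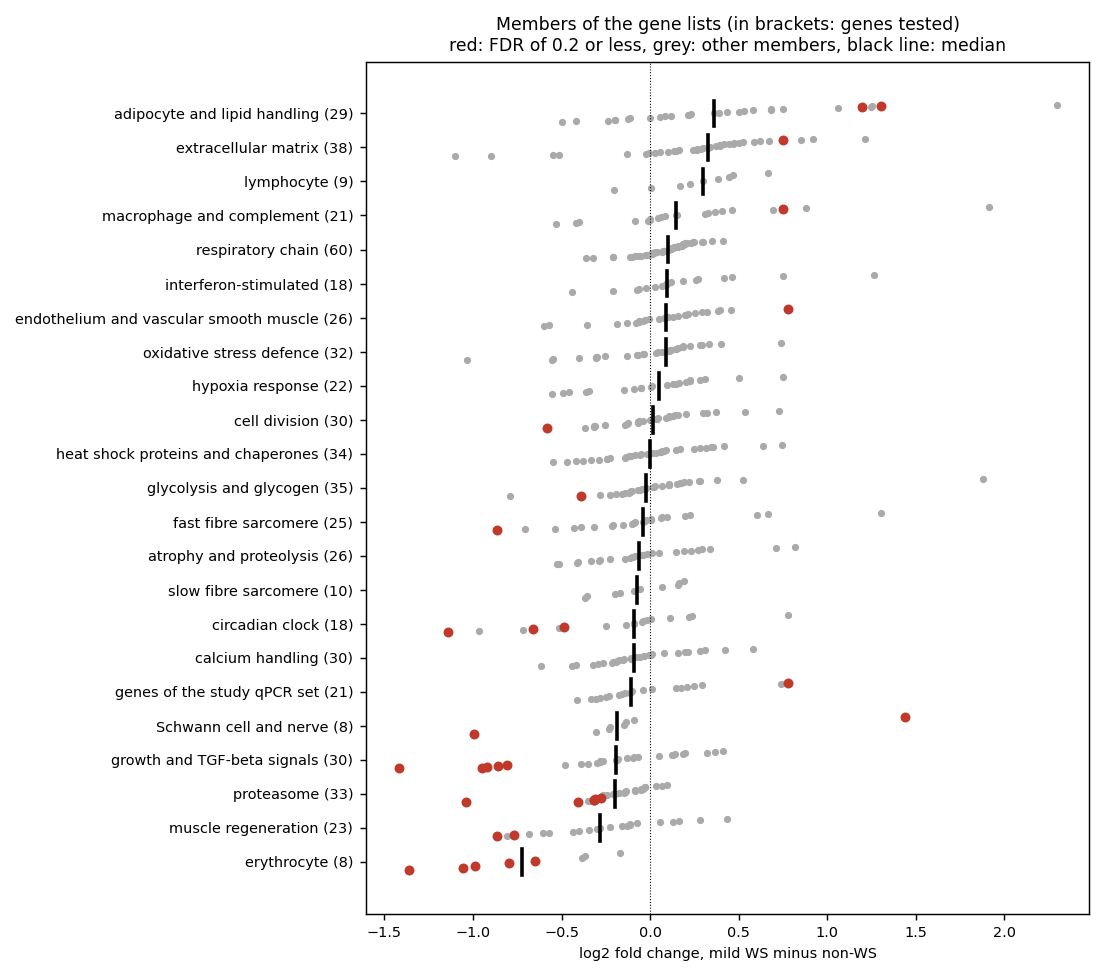
Log2 fold change (mild WS minus non-WS, horizontal axis) of the tested members of the 23 gene lists, ordered by their median (black line), with members at an FDR of 0.2 or less in red and the others in grey. The erythrocyte list lies lowest with a median of −0.72 and the adipocyte and lipid handling list highest with 0.36, and most lists center near 0.

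Against the higher grades, mild WS gave no DEG. No probe passed an FDR of 0.2 in mild WS against moderate WS (smallest adjusted p = 0.237, 2377 probes at an unadjusted p of 0.05 and the |FC| of 1.2) or against severe WS (smallest adjusted p = 0.272, 2979 probes). The study reported DEGs in both comparisons, by t-tests after quantile normalization and a batch adjustment. Its methods give an FDR of 0.05 and a figure legend 0.2. The study's set of arrays was smaller and held no non-WS birds. It also measured selected genes by qPCR and reported similar trends for most of those comparisons. The absence of DEGs here holds for the model used. The same non-WS birds served for all 3 grades, and for moderate WS 1707 probes (5.23%) and for severe WS 3 probes (0.00919%) passed the FDR of 0.2 against them. P2RY14 had the largest difference from moderate WS among the leading genes, 1.46 in mild WS minus moderate WS (adjusted p = 0.237). Its log2 fold change over non-WS was 1.60 in mild WS, 0.14 in moderate WS and 0.65 in severe WS. NOTUM had negative values at all grades, with −1.59 in mild WS, −1.46 in moderate WS and −1.12 in severe WS. For SEC16B and P2RX2, by contrast, severe WS lay near non-WS, with −0.04 and −0.10, while moderate WS gave −0.87 and −0.82 and mild WS −1.0 and −0.93. ANKRD1 was low in mild WS (−0.86) and not in moderate or severe WS (0.20 and −0.01). In NPTX2 the values over non-WS were 1.44, 2.59 and −0.16 from mild to severe WS. Globins were below non-WS at every grade, HBAD with −1.36, −0.69 and −0.62 from mild to severe WS. No difference between mild WS and another grade passed the threshold for these genes, and mild WS shared its slide row with moderate WS but not with severe WS.

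**Figure D5:**
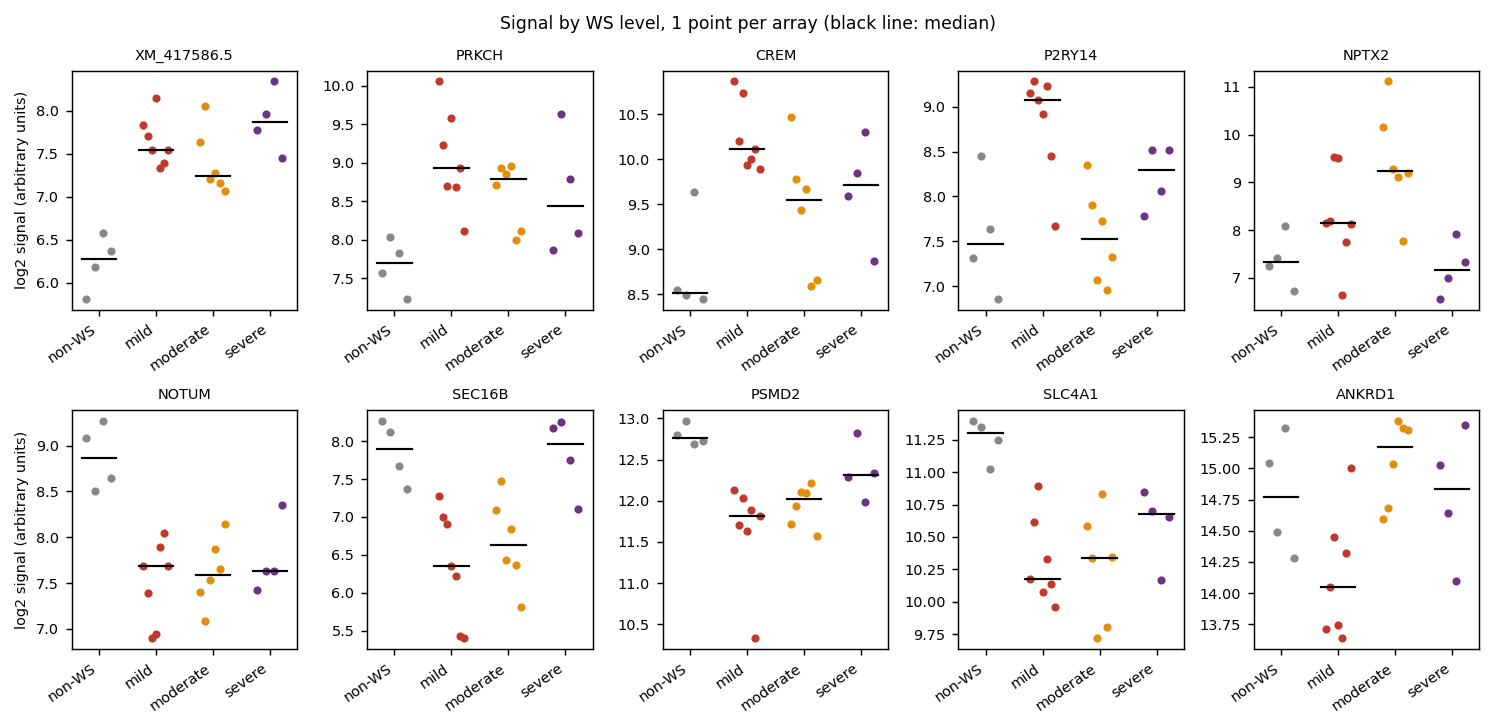
Log2 signal (vertical axis, arbitrary units) of 10 probes by WS level (horizontal axis: non-WS, mild, moderate and severe WS, with 4, 7, 6 and 4 birds), 1 point per bird and the median as a line. XM_417586.5 is higher and NOTUM lower than in non-WS at every grade, whereas SEC16B in severe WS lies near non-WS and P2RY14 is highest in mild WS.

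Some probes were measured in 1 group only and so were outside the test. Of 56401 probes, 37 were well above background on all 7 mild WS arrays and on none of the 4 non-WS arrays, and 3 had the reverse pattern. For these only a bound can be given, from the mean of the bright group and the lowest signal that was well above background on each array of the other. TNFRSF13B, a receptor of B cells for the survival factors BAFF and APRIL, was at least 2.73-fold higher in mild WS. Both probes of SLC35F3, a solute carrier, were at least 2.26-fold and 1.98-fold higher. ACVR1C, a type I receptor for activin and nodal, was at least 1.70-fold higher by the brighter of its probes. In the reverse direction, XM_015292752.1, which has no gene name here, was at least 5.27-fold lower in mild WS, and CCDC33 at least 2.47-fold lower. The non-WS arrays were the dimmer ones before normalization.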

How the data were processed

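The authors scanned 1-color arrays with Feature Extraction 10.7.1.1, and the deposited signal intensity per spot is background-subtracted but not normalized between arrays. A deposited table of intensities normalized by the authors served as an alternative. Spots of a probe were averaged, without those flagged as outliers, giving 56401 probes. Probes were kept when well above background, unflagged and at 20 or more on all 21 arrays, quantile normalized and put on the log2 scale. A linear model with a fixed slide term was fitted in limma 3.58.1 (R 4.3.3). All p values come from limma, except those of the methods' t-test, a t-test with pooled variance. They were adjusted by Benjamini-Hochberg over all probes tested and measure the spread between single birds. Symbols came from RefSeq transcripts (25956 probes) or the study's tables (262), and 30183 probes remained unnamed. Named genes were the DEGs and, where there were fewer, the 8 of smallest p per direction with a |FC| of 1.2 or more, plus the 2 of smallest p in each list, or its DEGs. Other genes, among them list members named for their role, were chosen after their values were seen. The comparison, the gene lists and their members were chosen with earlier results of these data known. The fit was tested on data simulated with independent normal noise, with 50 changed probes for each size of change. As DEGs it called 0 at 1.2-fold, 8 at 1.5-fold, 31 at 2-fold and 42 at 4-fold, and 1 unchanged probe. Few DEGs thus do not show that small changes are absent. Depth does not apply to arrays, and the number of birds limits precision. Alternatives covered background correction, scaling, detection filter, slide term, replicate block, 11 arrays alone, the methods' t-test, thresholds and each array left out.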

Additional observations from a re-analysis of the deposited data

Results flagged for a closer look

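In the 118 sets of values checked, mild WS or non-WS birds for each named gene, 5 had a bird far from the others of its group, and chance alone gives about 1 in 20. The figure for each is the gap to the nearest bird as a share of the range on the log2 scale. PSMD2 was at 1289 in mild WS replicate 6, with the next lowest mild WS bird at 3169 (0.722). NDUFA9 was at 7491 in mild WS replicate 7, with the next at 9365 (0.586). In non-WS replicate 3, CREM was highest at 794, with the next at 374 (0.919), and SMAD7 lowest at 119, with the next at 186 (0.835). CIART was highest in non-WS replicate 1 at 173, with the next at 145 (0.919).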

How the results depend on the processing

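The number of DEGs in mild WS against non-WS was 5 with normexp, 4 without a detection filter, 3 with detection in 1 group, 11 without the slide term, 20 with the slide as a random block, 1688 at an FDR of 0.2, and 0 with the authors' intensities, with the 11 arrays alone (with or without the slide term) and by the methods' t-test (4348 probes before adjustment, p up to 0.05 with the |FC| of 1.2). The t-test after a slide adjustment that kept the groups gave 811. That t-test takes no account of the slide terms estimated beforehand, which can make its p values too small. Leaving out single arrays gave 0 to 144. The replicate numbers did not pair the birds (correlations of same-numbered deviations between −0.092 and 0.154). A replicate block gave 0 DEGs and 1681 probes at an FDR of 0.2. At that FDR, in alternatives chosen after seeing the data, the count of 1688 became 1106 without a detection filter, 20 with the 11 arrays alone and the slide, 543 by the t-test and 5916 by the t-test after the slide adjustment. Single arrays left out gave 106 (without non-WS replicate 1) to 3073 (without mild WS replicate 3). It was 380 without mild WS replicate 1, 245 without replicate 2, 374 without replicate 4 and 713 without replicate 6. It was 1104 without moderate WS replicate 1, 704 without replicate 6, 2556 without non-WS replicate 2 and 379 without non-WS replicate 3. The causes were not tested.

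Of 1841 values of 59 named genes under an alternative, 4 reversed and 47 passed the DEG threshold only there. Only XM_417586.5 could lose the call, which it did in 16, so these counts say nothing of stability at an FDR of 0.2. TNNC1 (0.19) became −0.35 under scaling to the 75th percentile. TPM3 (−0.36) became 0.28 without the slide term, 0.048 with a random block and 0.28 with the 11 arrays alone and no slide term. List medians moved by more than the spread between birds under 75th percentile scaling for fast fiber sarcomere (−0.47), glycolysis and glycogen (−0.19), respiratory chain (−0.12), the qPCR set (−0.22), oxidative stress defence (−0.017) and proteasome (−0.29). The circadian clock median was −0.28 without the slide term, −0.28 with a random block, and −0.23 and −0.28 with the 11 arrays alone, with and without the slide. The hypoxia median became −0.031 with the 11 arrays alone and the slide. Leaving out single arrays gave medians of 0.21 to 0.44 for adipocyte and lipid handling, −0.038 to 0.092 for the hypoxia response, −0.053 to 0.040 for glycolysis and glycogen, −0.17 to −0.050 for the circadian clock and −0.28 to 0.10 for Schwann cell and nerve.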
